A study of Mus musculus with 28 samples.

Results

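The 10 genes described here carry glucose into the cell and split it: the hexokinases Hk1 and Hk2, the phosphofructokinase subunits Pfkp, Pfkl and Pfkm, the aldolase Aldoa, the lactate dehydrogenase subunits Ldha and Ldhb, and the glucose transporters Slc2a1 and Slc2a3. They were taken by name, and each was read from its brightest probe set among those annotated to that symbol alone. All 10 had such a probe set, 27 probe sets in all, of 18193 genes with a probe set of their own. All 10 were also among the 13931 genes bright enough on average over all arrays to be tested.

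Glycolysis runs through a few steps that several enzymes of different genes, called isozymes, can perform. Hexokinase traps glucose by phosphorylating it. HK1 is the usual hexokinase of adult brain and neurons, while HK2 marks muscle, fat and many tumours, and proliferating cerebellar granule neuron precursors, the cells from which sonic hedgehog medulloblastoma arises, are known to express it. Phosphofructokinase commits the sugar to glycolysis and is a tetramer of platelet-type (PFKP), liver-type (PFKL) and muscle-type (PFKM) subunits. Lactate dehydrogenase interconverts pyruvate and lactate, and its LDHA subunit is usually tied to lactate production and its LDHB subunit to lactate use. GLUT1, the product of Slc2a1, is the transporter of brain endothelium and glia, and GLUT3, the product of Slc2a3, is the neuronal one.

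RNA of 28 mouse samples was measured on Affymetrix Mouse 430 2.0 arrays, 1 array each: 10 medulloblastomas (a tumour of the cerebellum), 6 gliomas and 12 normal brains. All but 1 of the mice carried hGFAP-Cre, a Cre recombinase driven by the human GFAP promoter, which is active in neural stem and progenitor cells, and were p53-/-. Rictor, a subunit of the kinase complex mTORC2, was not targeted in 3 medulloblastomas, 1 glioma and 1 normal brain, was +/- in 2 medulloblastomas, 4 gliomas and 5 normal brains, and was -/- in 5 medulloblastomas, 1 glioma and 5 normal brains. The remaining normal brain, Z2, is labelled as from normal mice with wild-type p53. The labels put the tumour content of the tumour pieces at 70% or more and give neither the age of the mice nor the part of the brain from which normal tissue was taken. Arrays are named here by tissue and title code, such as medulloblastoma C6. Nothing in the labels says that arrays came from separate animals, so p-values measure the spread between these arrays.

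An intensity is the brightness of a probe set on a linear scale, and the trimmed mean of each array, without the 2% at each end, was 100. Their median intensities lay between 18.8 and 27.8, and the ratio of 3' to 5' actin signal, which rises as RNA degrades, was 1.49 to 4.38 in medulloblastoma, 1.73 to 2.78 in glioma and 1.99 to 6.21 in normal brain. The tissue groups were set against their markers: 9 of 9 granule neuron precursor genes were higher in medulloblastoma than in glioma, and 10 of 10 oligodendrocyte precursor genes were lower. Some arrays stood apart. Gabra6, a gene of mature cerebellar granule neurons, was at 1740.4 to 4918.3 in the normal brains B2, C5 and Z2, against 1.1 to 116.3 in the other 9. Among normal brains, C2 had a summed intensity of 19 cell cycle genes of 3264.9, against 868.3 to 1921.9 in the other 11. Medulloblastoma C6 had the highest summed intensity of 16 mature neuron genes among the medulloblastomas, 14527, against 1779.6 to 10225 in the other 9. Atoh1, the transcription factor that defines granule neuron precursors, was at 37.5 in medulloblastoma C6, against 493.3 to 1678.9 in the other 9, and at 176.2 in normal brain C2, against 1.4 to 21.1 in the other 11. Mycn was also highest among normal brains in C2, at 379.5 against 27.1 to 118.4. Without C6, or without C2, limma called 9 of the 10 genes described here in medulloblastoma against normal brain, 8 in glioma against normal brain and 5 between the tumours, where all arrays gave 9, 7 and 5. Values without these arrays are given where a call depends on them.

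Promoters are shown for Hk2, Hk1 and Ldha, which respectively rose, fell and did not pass the test in medulloblastoma. The RefSeq promoter table (build GRCm38.p6) held 9 of the 10 genes, Slc2a3 being the other, with 16 windows for 16 transcription start sites. The 250 bases before each start were searched on both strands for the core of the hypoxia response element, ACGTG or GCGTG, and for the E-box CACGTG, the letters MYC family proteins are known to bind. Every E-box of these letters also holds an ACGTG on each strand, so the searches overlap. A hypoxia core was present in 13 of the 16 windows, and in 38.6% of all 32851 windows of that length. Some windows of Pfkm and of Aldoa overlap and share a core, which then counts in 2 windows. Counted by gene, 9 of 9 had a core in at least 1 window, as did 41.5% of all 27025 genes in the table. The 16 windows were 36.4% to 69.6% G or C, and base composition was not matched to that of the other windows. An E-box was present in 2 of the 16 windows, 1 of Pfkm and 1 of Ldha, and in 6.02% of all windows.

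The windows below end at the base before the transcription start and read 5' to 3' along the gene, with matches to either motif in capitals. Hk1 has 2 annotated starts, and the one shown, chr10:62340422-62340671 on the minus strand, holds 3 cores, while the other holds none. Hk2 lies at chr6:82774455-82774704 on the minus strand and holds 2 cores and no E-box. Ldha also has 2 annotated starts. The window shown, chr7:46845554-46845803 on the plus strand, holds 2 E-boxes and 1 further core, while the other holds 1 core and no E-box. These are matches of letters, not measured binding.
Hk1: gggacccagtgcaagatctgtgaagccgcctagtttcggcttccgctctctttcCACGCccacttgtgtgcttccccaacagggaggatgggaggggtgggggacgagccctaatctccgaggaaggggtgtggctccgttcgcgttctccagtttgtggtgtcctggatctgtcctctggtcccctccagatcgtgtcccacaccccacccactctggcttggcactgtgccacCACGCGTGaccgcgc
Hk2: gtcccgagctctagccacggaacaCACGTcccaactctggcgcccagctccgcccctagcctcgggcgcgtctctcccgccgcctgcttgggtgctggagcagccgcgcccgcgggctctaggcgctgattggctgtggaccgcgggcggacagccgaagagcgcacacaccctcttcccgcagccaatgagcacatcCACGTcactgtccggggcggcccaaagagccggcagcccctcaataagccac
Ldha: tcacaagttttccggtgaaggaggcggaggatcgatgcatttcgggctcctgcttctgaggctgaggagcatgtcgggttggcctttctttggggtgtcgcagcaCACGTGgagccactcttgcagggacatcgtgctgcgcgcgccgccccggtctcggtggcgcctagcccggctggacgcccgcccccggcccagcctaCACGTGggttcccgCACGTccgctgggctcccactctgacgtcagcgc

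Hk2 was the only gene of the 10 that rose in medulloblastoma against normal brain, while 8 fell and Ldha did not pass the test. In glioma none rose and 7 fell. The calls were made with limma across all tested genes at a Benjamini-Hochberg adjusted p under 0.05, with genotype as a second term, and differences are on the scale of log2(intensity + 6.3), which understates the change of dim genes. Much of the array differed between these tissues: 32.2% of all tested genes were called higher and 32.0% lower in medulloblastoma, and 28.4% higher and 25.5% lower in glioma. The median difference of the 10 genes was -1.30 in medulloblastoma and -1.14 in glioma, against 0.01 and 0.05 over all tested genes. In these bulk samples, fewer cells of a type and less RNA per cell cannot be told apart.

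**Figure D1:**
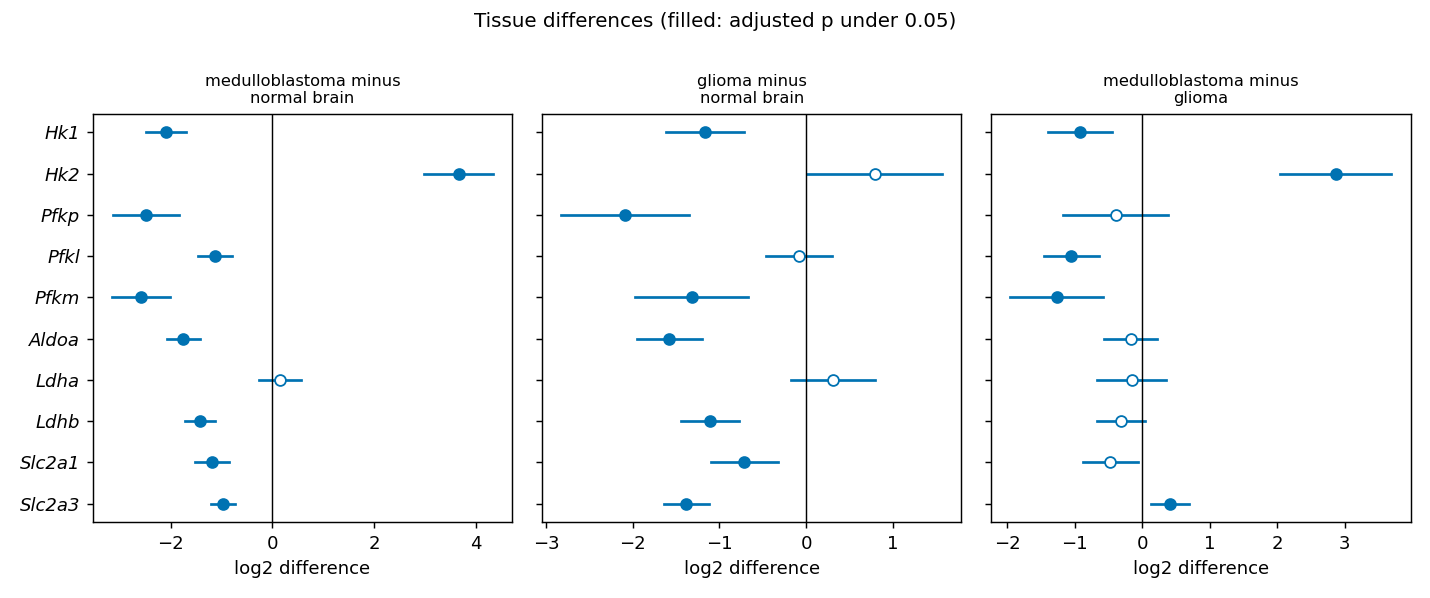
Log2 differences (horizontal axis, scale of log2(intensity + 6.3)) of the 10 genes (vertical axis) between tissues, with 95% confidence intervals from limma; filled points have an adjusted p under 0.05. Hk2 stands to the right of 0 in medulloblastoma against normal brain (3.66) and against glioma (2.87), while Hk1, Pfkp, Pfkm, Aldoa, Ldhb, Slc2a1 and Slc2a3 stand to the left of 0 in both tumours against normal brain.

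Mature neuron genes moved with the genes that fell. Of 16 such genes tested, 15 were lower in medulloblastoma and 16 in glioma, and their summed intensity was 26189 to 33659 in normal brain, 1779.6 to 14527 in medulloblastoma and 724.7 to 7574.3 in glioma. The most abundant of them, Snap25, a protein of synaptic vesicle release, ranged from 5028.6 to 6928.3 in normal brain from 335.6 to 3645.6 in medulloblastoma and from 141.5 to 2328.4 in glioma. None of the 16 was at 0 on any array. Over all genes, 32.0% were lower and 32.2% higher in medulloblastoma, and 25.5% lower and 28.4% higher in glioma. Glial genes moved too, though in glioma the astrocyte counts below lie near or under these shares. Of 12 astrocyte genes, 9 were lower and 1 higher in medulloblastoma, and 4 lower and 1 higher in glioma, with summed intensities of 11494 to 19901 in normal brain, 2321.8 to 10498 in medulloblastoma and 5527 to 18413 in glioma. Of 11 oligodendrocyte genes, 11 were lower in medulloblastoma, and 7 were lower and 1 higher in glioma, with sums of 5692.9 to 20230, 410.8 to 4882.1 and 5365.5 to 19677. The part of these changes in the values of the 10 genes, and in that of Aldoc, was not tested.

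Hexokinase showed the clearest exchange of isozymes. Hk2 had a lowest, median and highest intensity of 219.4, 913 and 1729.1 in the 10 medulloblastomas, of 48.8, 109 and 177.9 in the 6 gliomas, and of 34.1, 45.2 and 128.5 in the 12 normal brains. The lowest medulloblastoma, C6, was thus above every glioma and every normal brain. Hk2 stood 12.6-fold above normal brain in medulloblastoma (a log2 difference of 3.66 with an SE of 0.33, adjusted p = 6.08e-10) and 7.29-fold higher than in glioma (2.87, SE 0.40, adjusted p = 4.91e-06). Among the 13931 genes, 8.76% were higher without overlap in medulloblastoma than in normal brain, and 2.63% higher without overlap than in glioma.

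Within normal brain, Hk2 was not even. The Gabra6-rich arrays lay at 85.5 to 128.5 and normal brain C2 at 127.4, while the other 8 arrays lay at 34.1 to 66.1. In glioma against normal brain the difference, 0.79 (SE 0.38, 95% interval 0.02 to 1.57), missed the threshold with an adjusted p of 0.0792. It passed without the 3 Gabra6-rich normal brains (0.96, adjusted p = 0.0354), without normal brain C2 (0.88, adjusted p = 0.0484) without normal brain C5 (0.88, adjusted p = 0.0463), without glioma B7 (0.98, adjusted p = 0.0360) or without medulloblastoma C6 (0.84, adjusted p = 0.0328). It did not pass within the arrays of either title prefix, YZ (0.70, adjusted p = 0.262) or YZ2 (0.70, adjusted p = 0.524). The medulloblastoma difference without those 3 normal brains was 3.84, without C2 3.79, without C6 3.88, within YZ 3.63 and within YZ2 3.62.

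Hk1 ran the other way. Its intensity was 468.3, 644 and 784.9 (lowest, median, highest) in normal brain, 217.5, 279 and 419.7 in glioma, and 63.7, 143 and 277.6 in medulloblastoma. Neither tumour overlapped normal brain, while the tumours overlapped each other. The fall was 4.24-fold in medulloblastoma (a log2 difference of -2.08, SE 0.19, adjusted p = 6.89e-10) and 2.24-fold in glioma (-1.16, SE 0.22, adjusted p = 6.70e-05). Medulloblastoma was also below glioma (-0.92, SE 0.23, adjusted p = 0.00350), a call that was lost within YZ (-0.75, adjusted p = 0.0775) and within YZ2 (-0.90, adjusted p = 0.258). The dimmer second probe set of Hk1 was lower in medulloblastoma as well (-1.24, adjusted p = 5.48e-06), and Hk2 had no other probe set.

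**Figure D2:**
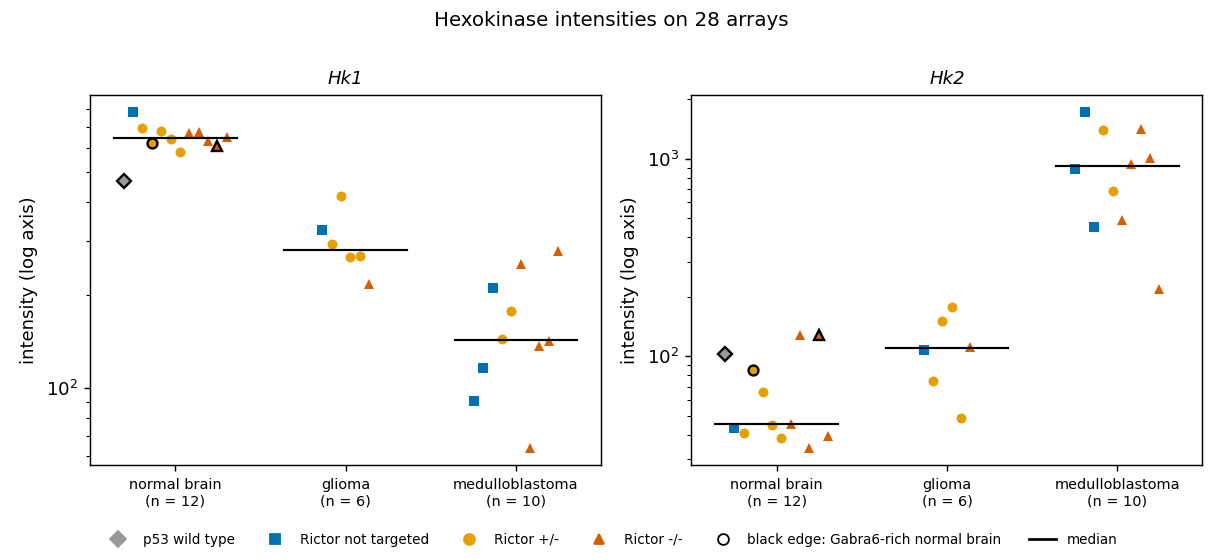
Intensities of Hk1 (left) and Hk2 (right) on each array, on log axes, by tissue; symbols and colours give the genotype, black edges mark the 3 Gabra6-rich normal brains and lines are medians. Hk1 falls from a median of 644 in normal brain to 143 in medulloblastoma, while the 10 medulloblastomas lie above all other arrays for Hk2.

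The difference of the log2 intensities of Hk2 and Hk1 within an array, the isozyme balance, has no meaning as a level, since probe sets differ in brightness, but its shift between arrays can be read. It averaged -3.29 (SD 0.73, n = 12) in normal brain, -1.44 (SD 0.63, n = 6) in glioma and 2.37 (SD 1.404, n = 10) in medulloblastoma. Medulloblastomas ranged from -0.33 in C6 to 3.83 in A5, and none overlapped a glioma, of which the highest was -0.57, or a normal brain, of which the highest was -2.13. The shift from normal brain to medulloblastoma was 5.66 log2 units, and it was 5.20 to 5.58 when all probe sets of a gene were taken by their median or the arrays were quantile normalized. Glioma and normal brain overlapped.

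**Figure D3:**
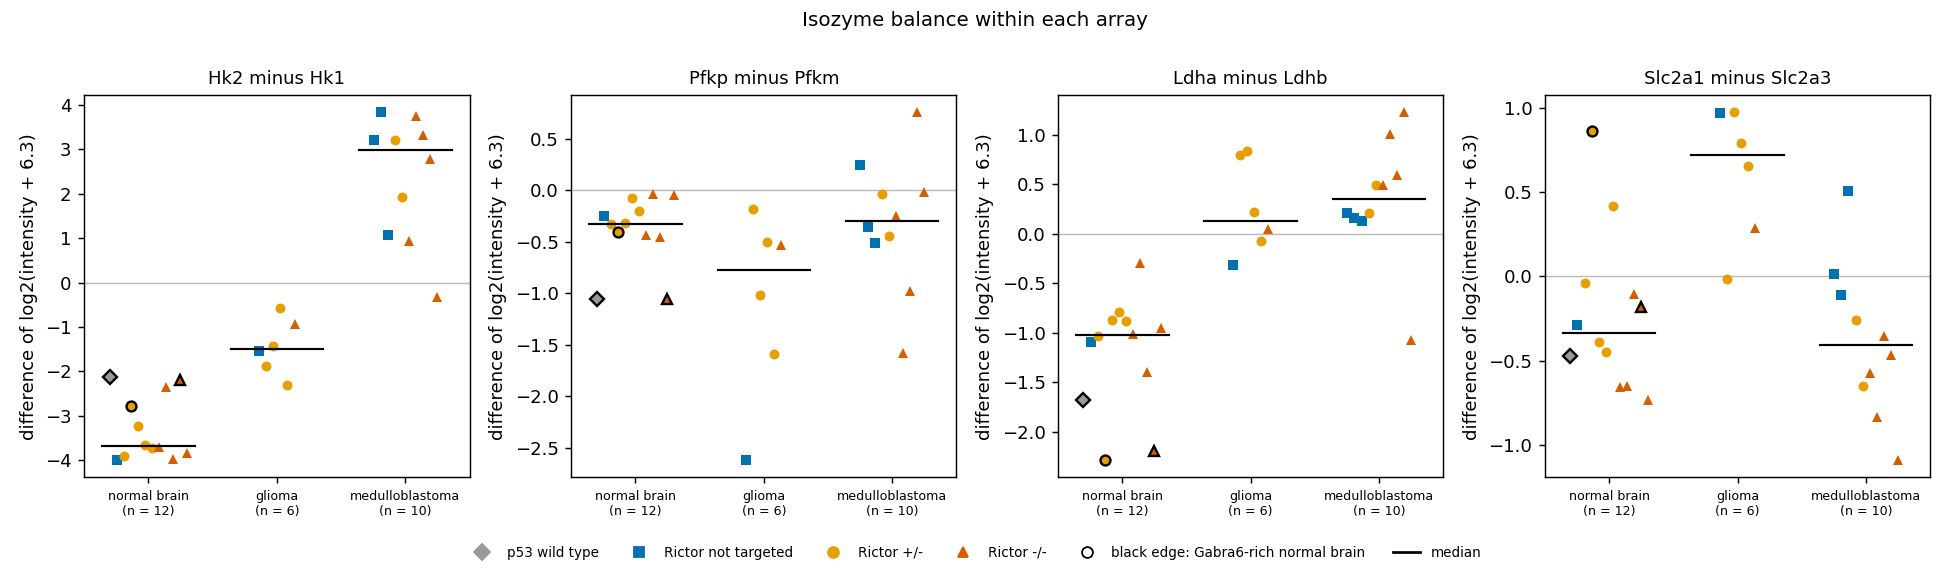
Isozyme balance within each array, as the difference of log2(intensity + 6.3) of 2 genes (vertical axes), by tissue; symbols and colours give the genotype, black edges the Gabra6-rich normal brains and lines the medians. The Hk2 minus Hk1 panel sets the medulloblastomas above all other arrays, the Ldha minus Ldhb panel sets most tumours above normal brain, and the other panels overlap.

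Across the 10 medulloblastomas Hk2 and Hk1 tended to oppose each other, with Pearson's r = -0.685 and Spearman's rho = -0.685. Of 5 relations examined in these tumours, this one had permutation p-values of 0.0289 and 0.0343, which became 0.0747 and 0.0572 after Benjamini-Hochberg adjustment. Without medulloblastomas C2 and C6, the arrays farthest from the median of Hk1, r was -0.723. Hk1 against the summed mature neuron genes gave r = 0.686 and rho = 0.721 (adjusted permutation p = 0.0747 and 0.0572), and r = 0.546 without C6 and B6. Hk2 against the summed cell cycle genes gave r = 0.526 and rho = 0.818, with adjusted permutation p-values of 0.151 and 0.0297, so only the rank correlation passed. Without A3 and A6, the arrays farthest from the median of the cell cycle sum, r was 0.943. The relation of Hk2 to the summed granule neuron precursor genes (r = 0.559, rho = 0.515) and that of Slc2a1 to the summed endothelial genes (r = 0.254, rho = -0.018) did not pass.

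Over all 28 arrays the tested genes most like Hk2 by Pearson's r were Cecr2 (0.946), Barhl1 (0.945), Nt5dc1 (0.943), Lrig3 (0.943) and Smo (0.936), and those most like Hk1 were Pdxk (0.963), Gpr162 (0.961), Fgf12 (0.961), Pnmal2 (0.960) and Cyfip2 (0.957). Within the 10 medulloblastomas the genes nearest to Hk2 were others, Nap1l1 (0.942), Pcbp1 (0.914), Zbtb39 (0.909), Cct7 (0.904) and Col14a1 (0.902). These are rankings over the same arrays, given without a test.

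The phosphofructokinase subunits all fell in medulloblastoma, while in glioma Pfkl did not pass the test. Pfkm, the muscle-type subunit, had intensities of 960.5, 1180 and 1400.3 in normal brain, 277.2, 472 and 710.7 in glioma, and 73.7, 153 and 400.7 in medulloblastoma. Both tumours lay wholly below normal brain and overlapped each other. The difference was -2.58 (SE 0.28, adjusted p = 1.04e-08) in medulloblastoma and -1.32 (SE 0.32, adjusted p = 0.00101) in glioma, the latter not passing within YZ2 (-1.25, adjusted p = 0.0981), where there were 2 gliomas.

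Pfkp, the platelet-type subunit, was at 623.3, 930 and 1087.7 in normal brain, 110.5, 232 and 327.9 in glioma, and 49.1, 185 and 377.9 in medulloblastoma, so that again neither tumour overlapped normal brain. It was 5.58-fold lower in medulloblastoma (-2.48, SE 0.31, adjusted p = 1.45e-07) and 4.26-fold lower in glioma (-2.09, SE 0.36, adjusted p = 2.33e-05). The size of the fall is less firm: over 17 alternatives it ranged from -2.68 to -0.75 in medulloblastoma and from -2.21 to -0.97 in glioma. Its dimmer probe sets averaged 45.4 and 20.6 in normal brain, 24.0 and 9.4 in medulloblastoma, and 18.4 and 10.1 in glioma. The tumours did not differ beyond their spread (-0.39, 95% interval -1.17 to 0.39). The balance of Pfkp to Pfkm shifted by 0.07 in medulloblastoma from the brightest probe sets but by 1.65 from the median of all probe sets, where Pfkp rests on dim ones, so its shift is uncertain.

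Pfkl, the liver-type subunit, was at 33.1, 84.9 and 107.1 in normal brain, 56.1, 76.8 and 108.0 in glioma, and 13.1, 33.1 and 52.8 in medulloblastoma. Every medulloblastoma was below every glioma, and medulloblastoma met normal brain only through Z2, the lowest normal brain. The difference from normal brain was -1.13 in medulloblastoma (SE 0.16, adjusted p = 1.21e-06) and -0.08 in glioma (95% interval -0.46 to 0.30, adjusted p = 0.743), and medulloblastoma was below glioma by -1.05 (SE 0.20, adjusted p = 0.000222). Of its dimmer probe sets, 1 also fell in medulloblastoma (-0.55, adjusted p = 0.000222) and the other did not pass (-0.12, adjusted p = 0.556).

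Aldoa, which splits fructose bisphosphate into triose phosphates, was at 2575.9, 3405 and 4134.6 in normal brain, 994.9, 1056 and 1564.6 in glioma, and 640.2, 933 and 2456.6 in medulloblastoma. The normal brains stood above all tumours, the nearest tumour being medulloblastoma C1. It fell 3.36-fold in medulloblastoma (-1.75, SE 0.16, adjusted p = 7.13e-10) and 2.98-fold in glioma (-1.58, SE 0.18, adjusted p = 9.68e-08). All 5 of its probe sets fell in both tumours, by -0.74 to -2.27 in medulloblastoma and -0.62 to -2.26 in glioma, yet all are of a kind whose probes may also bind related transcripts, so its level is uncertain.

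Ldhb fell and Ldha did not. For Ldhb the intensities were 1684.7, 2361 and 3517.6 in normal brain, 806.8, 1110 and 1361.4 in glioma, and 605.7, 886 and 1325.2 in medulloblastoma. No tumour reached the lowest normal brain, C2. The differences were -1.42 in medulloblastoma (SE 0.14, adjusted p = 3.87e-09) and -1.11 in glioma (SE 0.16, adjusted p = 3.38e-06). The brightest probe set of Ldhb may bind related transcripts, as may another of its probe sets. The other 3, that set included, gave -1.20 to -1.53 in medulloblastoma.

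Ldha was at 697.8, 1128 and 1370.0 in normal brain, 768.8, 1235 and 2384.0 in glioma, and 629.1, 1188 and 1850.6 in medulloblastoma. The 3 tissues overlapped throughout. The differences from normal brain were 0.15 in medulloblastoma (95% interval -0.27 to 0.57, adjusted p = 0.538) and 0.31 in glioma (-0.17 to 0.79, adjusted p = 0.276). The title prefixes parted here: within YZ Ldha was higher in medulloblastoma (0.96, adjusted p = 0.00347) and in glioma (0.92, adjusted p = 0.00230), while within YZ2 the estimates were -0.22 (adjusted p = 0.472) and -0.42 (adjusted p = 0.455). Normal brain itself divided, with the Gabra6-rich arrays at 697.8 to 736.3 and the other 9 at 1025.6 to 1370.0, and 2 of the 5 YZ normal brains were Gabra6-rich. Over both prefixes without the 3 Gabra6-rich arrays, Ldha differed by 0.025 in medulloblastoma (adjusted p = 0.921) and 0.181 in glioma (adjusted p = 0.528).

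The balance of Ldha to Ldhb averaged -1.20 (SD 0.58, n = 12) in normal brain, 0.25 (SD 0.47, n = 6) in glioma and 0.35 (SD 0.62, n = 10) in medulloblastoma, a shift from normal brain of 1.46 in glioma and 1.55 in medulloblastoma. Medulloblastoma C6, at -1.07, was the one medulloblastoma within the normal brain range, which ended at -0.30, and glioma A4 at -0.32 was the one glioma.

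Both glucose transporters fell in both tumours. Slc2a1, which feeds the brain through its endothelium, was at 749.1, 998 and 1906.2 in normal brain, 495.4, 811 and 1012.6 in glioma, and 374.3, 455 and 1174.2 in medulloblastoma. Medulloblastoma A6 held the 1174.2, and the other 9 medulloblastomas, at 374.3 to 495.4, were below every normal brain. The differences were -1.18 in medulloblastoma (SE 0.16, adjusted p = 6.65e-07) and -0.71 in glioma (SE 0.19, adjusted p = 0.00235), the latter not passing within YZ2 (-0.43, adjusted p = 0.153). The other probe sets of Slc2a1 fell too, by -1.29 and -1.19 in medulloblastoma. Of 10 endothelial genes tested, 4 were lower in medulloblastoma, and 3 were lower and 1 higher in glioma. These counts lower are near the shares over all genes, 32.0% and 25.5%. Summed intensities over 11 genes were 1578.5 to 2636.7 in normal brain, 1021.5 to 1888.4 in medulloblastoma and 924.5 to 2357.5 in glioma. Itm2a made up much of these sums, at 657.3 to 1472.9, 358.8 to 1374.7 and 314.2 to 1519 in the same order. The part of endothelial genes in the fall of Slc2a1 was not tested.

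Slc2a3, the neuronal transporter, was at 1045.1, 1237 and 1700.3 in normal brain, 401.7, 494 and 525.0 in glioma, and 479.2, 626 and 826.6 in medulloblastoma. Both tumours lay wholly below normal brain, and their own ranges met only between 479.2 and 525.0. It fell by 0.97 in medulloblastoma (SE 0.11, adjusted p = 3.07e-08) and by 1.38 in glioma (SE 0.13, adjusted p = 3.22e-09), on the log2 scale. Here alone, besides Hk2, medulloblastoma was above glioma (0.41, SE 0.13, adjusted p = 0.0221). That call was lost within either prefix (0.50, adjusted p = 0.0843 within YZ; 0.25, adjusted p = 0.574 within YZ2), with the median of all probe sets (0.14, adjusted p = 0.588) and without glioma A4, glioma C3 or medulloblastoma B6 (0.33 to 0.36). Its brightest probe set may bind related transcripts.

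**Figure D4:**
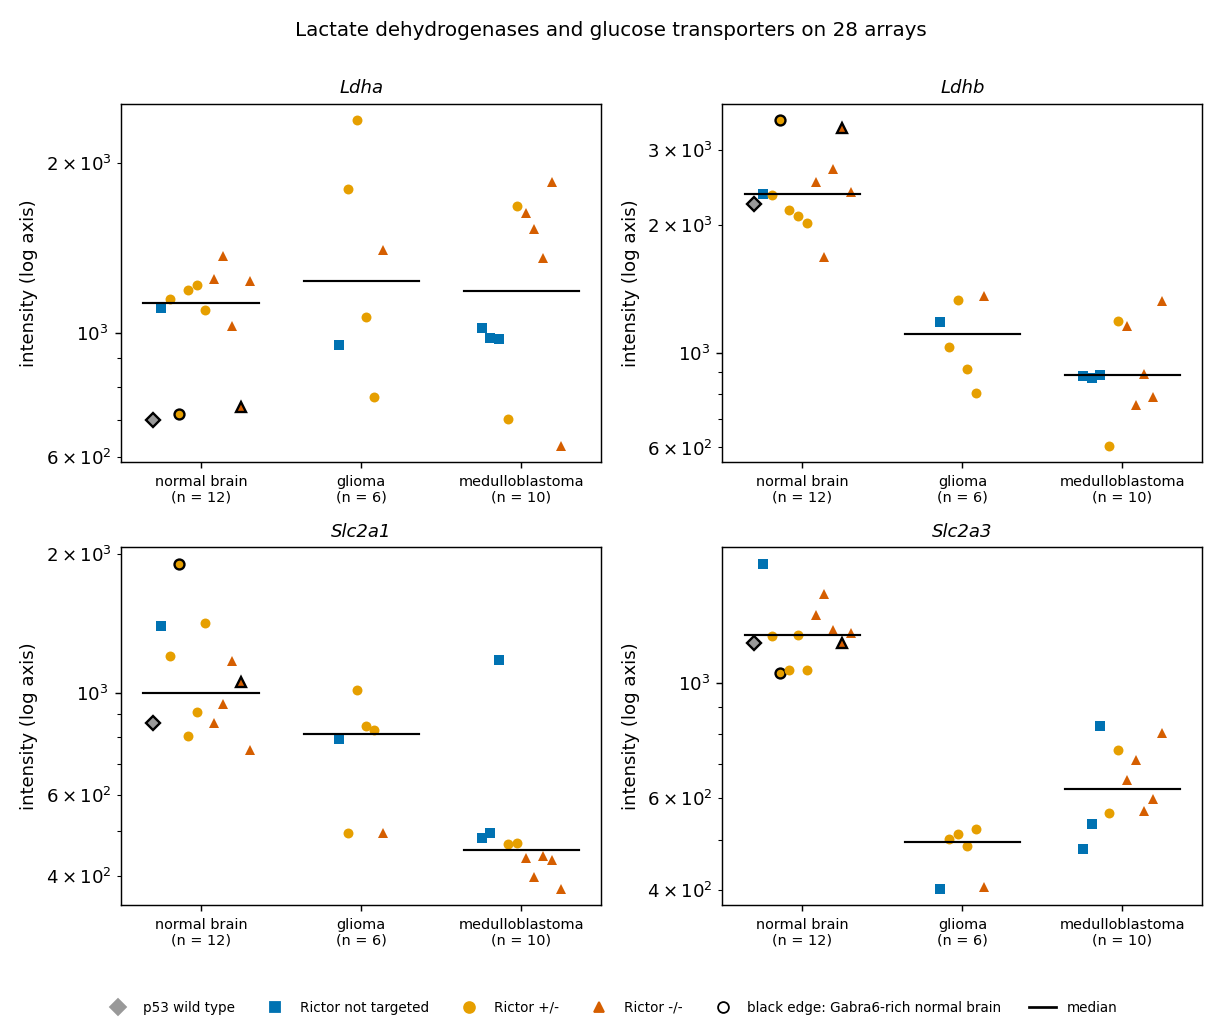
Intensities of Ldha, Ldhb, Slc2a1 and Slc2a3 on each array, on log axes, by tissue; symbols and colours give the genotype, black edges the Gabra6-rich normal brains and lines the medians. Ldhb and Slc2a3 are higher in every normal brain than in any tumour, the 3 Gabra6-rich normal brains are the lowest normal brains for Ldha, and medulloblastoma A6 stands above the other medulloblastomas for Slc2a1.

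By overlap of the arrays, 1 of the 10 genes was wholly higher and 6 wholly lower in medulloblastoma than in normal brain (Hk1, Pfkp, Pfkm, Aldoa, Ldhb and Slc2a3). Over all genes, 8.76% were wholly higher and 7.96% wholly lower. The same 6 were wholly lower in glioma and none was wholly higher, against 9.23% lower and 9.45% higher over all genes. Between the tumours, limma called 5 of the 10: Hk2 and Slc2a3 higher and Hk1, Pfkl and Pfkm lower in medulloblastoma, with 13.6% of all genes called higher and 14.8% lower. Pfkm, at -1.26 between the tumours (SE 0.34, adjusted p = 0.00574), and Slc2a3 were not called without glioma A4, which left 3. Within YZ, Hk2 and Pfkl were called, and within YZ2, Hk2 and Slc2a1. Slc2a1 missed the threshold over all arrays (-0.47, SE 0.20, adjusted p = 0.0791), and Pfkl did within YZ2 (-0.85, adjusted p = 0.127). The miss of Slc2a1 was not firm. It passed without medulloblastoma A6 (-0.569, adjusted p = 0.0138), without glioma B1 (-0.564, adjusted p = 0.0359) or without normal brain B2 (-0.505, adjusted p = 0.0443). It also passed with tissue as the only term (-0.552, adjusted p = 0.0471) or with the actin ratio as a term (-0.526, adjusted p = 0.0498). Hk2 alone was wholly higher and Pfkl alone wholly lower, where 2.63% of all genes were wholly higher and 3.56% wholly lower.

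Beyond the 10 genes, the other glycolytic enzymes that could be read had more calls down than up. Of 18 listed, 13 had a probe set of their own. Gapdh and Eno1 had none. Of the 13, 3 were higher and 8 lower in medulloblastoma, and 3 higher and 6 lower in glioma, with median differences of -0.76 and -0.50. Over all genes, 32.2% were higher and 32.0% lower in medulloblastoma, and 28.4% higher and 25.5% lower in glioma. Eno2, the neuronal enolase, which is also among the mature neuron genes above, fell most (-4.20 and -3.66, adjusted p = 1.52e-08 and 2.33e-06). Aldoc, the aldolase of astrocytes and Purkinje cells, fell in medulloblastoma (-2.05, adjusted p = 4.61e-06) and not detectably in glioma (-0.36, adjusted p = 0.426). Tpi1, the triose phosphate isomerase, fell in both (-1.59 and -1.39, adjusted p = 1.05e-07 and 1.12e-05).

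Genes that act on pyruvate entry into mitochondria, to favour or to block it, fell or did not pass. Of 12, 8 were lower in medulloblastoma and 7 in glioma, and none was higher. Over all genes, 32.0% were lower and 32.2% higher in medulloblastoma, and 25.5% lower and 28.4% higher in glioma. The lower genes include kinases that inhibit pyruvate dehydrogenase: Pdk1, Pdk2 and Pdk4 in medulloblastoma, and Pdk2 and Pdk4 in glioma. The counts therefore give no direction for pyruvate entry. The median differences of the 12 genes were -0.65 and -0.62. Pdp1, the phosphatase that activates pyruvate dehydrogenase, fell by 1.98 and 2.87 on the log2 scale (adjusted p = 3.84e-08 and 3.26e-09). Pdk4, a kinase that inhibits the same enzyme, fell by 1.99 and 1.90 (adjusted p = 2.89e-05 and 0.000371).

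The pentose phosphate pathway, which branches off after hexokinase and makes ribose and NADPH, had calls in the upward direction alone. Of 7 genes listed, 6 had a probe set of their own: Pgls, Pgd, Taldo1, Tkt, Rpia and Rpe. Glucose-6-phosphate dehydrogenase was not among them. In medulloblastoma 5 of the 6 were higher and none lower, and in glioma 6 of 6 were higher, with medians of 0.83 and 1.09. Over all genes, 32.2% were higher in medulloblastoma and 28.4% in glioma. Pgls, a lactonase, rose by 1.54 and 1.38 (adjusted p = 1.62e-08 and 1.73e-06), and Pgd, the phosphogluconate dehydrogenase, by 0.95 and 1.12 (adjusted p = 1.80e-05 and 2.12e-05). Rpia, which forms ribose phosphate, rose by 1.57 in medulloblastoma and 0.46 in glioma (adjusted p = 5.73e-09 and 0.0371). Cell cycle genes moved with these, 19 of 19 being higher in both tumours, and their part was not tested.

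Among 11 other glucose and lactate transporters, 1 was higher and 5 lower in medulloblastoma, and 2 higher and 3 lower in glioma, with medians of -0.35 and -0.25. Over all genes, 32.2% were higher and 32.0% lower in medulloblastoma, and 28.4% higher and 25.5% lower in glioma. The glioma counts of these transporters did not stand above those shares beyond 1 gene. Slc2a13, a myo-inositol transporter of the same family, fell in both (-2.64 and -2.77, adjusted p = 2.20e-09 and 2.71e-08), and Slc16a7, a monocarboxylate transporter, rose in glioma (1.04, adjusted p = 0.00609). Of 4 genes that set the level of the sugar phosphate that activates phosphofructokinase, Pfkfb2 was lower in medulloblastoma (-0.48, adjusted p = 0.00830), while in glioma Pfkfb3 was higher (0.61, adjusted p = 0.0489) and Tigar lower (-0.81, adjusted p = 0.0400).

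Of 7 MYC network factors, 5 were higher and 1 lower in medulloblastoma, and 5 were higher in glioma, with medians of 0.71 and 0.50. Mycn, which drives granule neuron precursor growth, rose by 4.36 in medulloblastoma and 0.89 in glioma (adjusted p = 2.89e-12 and 0.0232). Myc rose by 1.70 and 3.26 (adjusted p = 8.42e-06 and 9.32e-09). Of 12 genes of the hypoxia response, 2 were higher and 6 lower in medulloblastoma, and 2 higher and 2 lower in glioma, with medians of -0.48 and 0.21. The shares over all genes were 32.2% higher and 32.0% lower in medulloblastoma, and 28.4% and 25.5% in glioma. Both glioma counts of the hypoxia genes lie under these shares. Hif1a, the oxygen-regulated subunit, rose by 0.50 and 0.83 (adjusted p = 0.00103 and 2.42e-05), and Bnip3, a mitophagy receptor induced by hypoxia, fell by 2.04 and 1.65 (adjusted p = 1.30e-08 and 5.91e-06).

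The Rictor genotypes were compared within tissues. Rictor itself, by its brightest probe set, was at 158.7, 235.8, 68.8, 190.4 and 202.1 in the Rictor -/- medulloblastomas C2, C6, C1, C4 and C5, at 260.8 and 276.8 in the +/- ones B4 and B6, and at 257.9, 273.3 and 222.7 in A3, A6 and A5, where it was not targeted. C6 overlapped the untargeted tumours. In normal brain the -/- arrays, at 213.3 to 443.9, overlapped the +/- arrays, at 250.5 to 388.6. The highest of each, C5 and B2, were Gabra6-rich. Apart from these, the -/- arrays were at 213.3, 222.1, 238.4 and 270.5, and the +/- arrays at 250.5 to 265.7. The single Rictor -/- glioma was at 144.4 against 192.5 to 375.7 in the other 5. The difference in medulloblastoma was -0.64 against untargeted (SE 0.35, adjusted p = 0.981) and -0.74 against +/- (SE 0.40, adjusted p = 0.9999), and no source used here says whether this probe set lies in the deleted part.

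None of the 10 genes was called between Rictor -/- and untargeted medulloblastoma, between -/- and +/- medulloblastoma, or between -/- and +/- normal brain. Over all genes the share called was 0.00718% in each of the medulloblastoma comparisons, 1 gene each, and 0% in normal brain. In the same order, 605, 199 and 439 genes had an unadjusted limma p under 0.05, or 4.34%, 1.43% and 3.15%. Each share is under the 5% that this threshold passes when no gene differs. The test of whether the effect differed between medulloblastoma and normal brain called 0% of genes, none of the 10. There, 264 genes, or 1.9%, had an unadjusted limma p under 0.05, again under 5%. The groups hold 2 to 5 arrays, and intervals were wide.

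Hk2 shows that width. The Rictor -/- medulloblastomas were at 939.9, 219.4, 490.2, 1418.4 and 1012.7 in the order above, the +/- ones at 1397.9 and 687.3 and the untargeted ones at 886.5, 451.4 and 1729.1. The groups overlapped. Against untargeted tumours the difference was -0.37 (95% interval -1.65 to 0.90, adjusted p = 0.987), and it was 0.03 without C6. Against +/- tumours it was -0.52 (-1.98 to 0.94, adjusted p = 0.9999), and in normal brain 0.25 (-0.58 to 1.08, adjusted p = 0.9997).

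Slc2a1 came nearest to a difference in medulloblastoma. The Rictor -/- tumours lay at 374.3 to 441.6, the +/- ones at 469.1 and 470.6, and the untargeted ones at 484.0, 1174.2 and 495.4, so that all -/- tumours lay below the others. Among all tested genes, 1.11% had every -/- tumour below every untargeted one, and 2.51% had every -/- tumour below both +/- ones. The difference from untargeted tumours was -0.65 (SE 0.28, 95% interval -1.27 to -0.03), with an unadjusted p of 0.0406 and an adjusted p of 0.981. It was -0.23 without A6, which held the 1174.2, and -0.87 without A3. The difference from +/- tumours was -0.17 (-0.88 to 0.53, adjusted p = 0.9999). In normal brain the -/- arrays, at 749.1 to 1173.4, overlapped the +/- arrays, at 805.7 to 1906.2. Slc2a3 was higher in Rictor -/- than +/- normal brain by 0.21 (95% interval 0.01 to 0.42), with an unadjusted p of 0.0439 and an adjusted p of 0.9997. Hk1 differed by 0.01 in normal brain (-0.18 to 0.20).

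**Figure D5:**
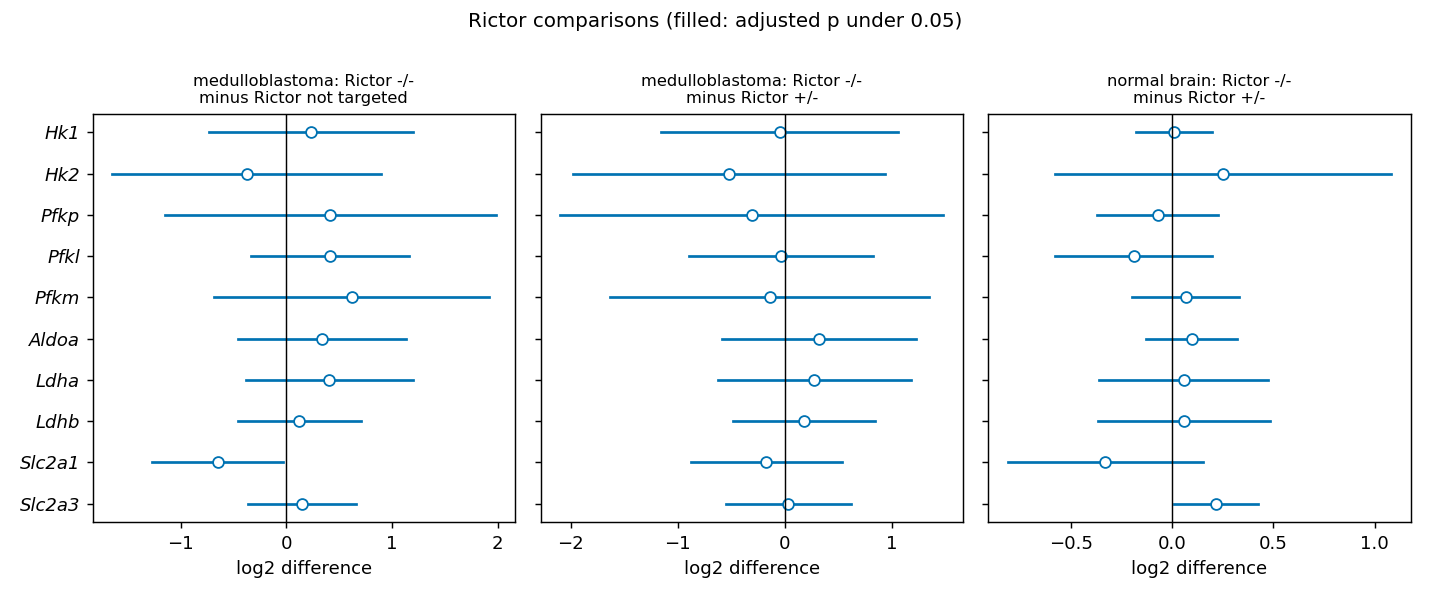
Log2 differences (horizontal axis, scale of log2(intensity + 6.3)) of the 10 genes (vertical axis) between Rictor genotypes within a tissue, with 95% confidence intervals from limma; no point is filled, since none had an adjusted p under 0.05. Intervals are widest in medulloblastoma, as for Hk2 against untargeted tumours, -1.65 to 0.90.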

How the data were processed

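Intensities of 45101 probe sets on 28 arrays (10 medulloblastomas, 6 gliomas, 12 normal brains) were used as deposited by the authors, on a linear scale. The submitters' processing notes name MAS5 and GCOS without a version. Probe sets were named from the platform annotation: 34945 had 1 symbol, 932 several and 9224 none listed, controls included. Each gene took its brightest 1-symbol probe set, 3.88 on the log2 scale (the 30th percentile) was the lowest mean tested, and 6.3 (the 25th percentile) was added before taking log2.

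limma 3.58.1 in R 4.3.3 (lmFit, eBayes with trend, Benjamini-Hochberg over 13931 genes, two-sided) fitted tissue and genotype over all arrays, and group means within 10 medulloblastomas and 12 normal brains. The fit was checked on data made with known differences. Correlations used 100000 permutations. Named were all 10 genes, up to 3 called genes of each pathway list by size of difference, up to 2 genes of a marker list by mean, Rictor, and the 5 genes most correlated with Hk1 or Hk2. Members, lists and rules were chosen with earlier results of these data known. Promoters came from RefSeq (GRCm38.p6). Alternatives were other pseudocounts, filters, scaling, probe sets, terms and array subsets. The number of arrays limits the precision.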

Additional observations from a re-analysis of the deposited data

Results flagged for a closer look

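Of 60 sets of arrays (10 genes in 6 groups of 4 to 10 arrays), 7 held an array whose gap to its nearest neighbour was large for the range of its group; chance flags about 1 set in 20. Slc2a1 was 1174.2 in medulloblastoma A6, against 374.3 to 495.4 in the other 9. Aldoa was 2456.6 in medulloblastoma C1, against 640.2 to 1294.4 in the other medulloblastomas and 736.4 to 1187.5 in the other Rictor -/- ones, so that it was flagged in both groups. In glioma B2, Aldoa was 1564.6 against 994.9 to 1153.4 in the other 5, and Hk1 was 419.7 against 266.3 to 291.5 in the other Rictor +/- gliomas. In normal brain B2, which is Gabra6-rich, Ldha was 717.8 against 1099.0 to 1213.1 and Ldhb 3517.6 against 2022.0 to 2355.6 in the other Rictor +/- normal brains.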

How the results depend on the processing

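The count of the 10 genes called in medulloblastoma against normal brain was 9 to 10 under 17 alternatives and 9 without any 1 array, and in glioma 5 to 8 and 7 to 8. Between the tumours the count of 5 became 2 within YZ, 2 within YZ2 and 1 with a fixed replicate block by title code, and 3 to 6 without any 1 array; it is 3 without glioma A4. The counts for the Rictor comparisons within a tissue were 0 under the 6 alternatives run for each and without any 1 array; no alternative was run for the difference of the Rictor effect between tissues. In all 13931 genes, calls fell from 8948 to 5439 within YZ (medulloblastoma), from 7510 to 3372 within YZ2 (glioma), and from 3959 to 1873, 1119 and 553 within YZ, within YZ2 and under the fixed block (between tumours), fits with fewer arrays; the counts of 1 for Rictor -/- medulloblastoma ranged from 0 to 3.

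Title codes were tried as pairs. Deviations of same-coded tumour and normal arrays correlated at -0.118 to 0.266 over 8 pairs, with not every pair above 0.1, and not every tumour array correlated best with its own code, so the codes were not taken to pair the arrays. A random replicate block gave 9, 7 and 5 calls, and the fixed replicate block over 16 arrays gave 9, 8 and 1. Under the fixed block, Hk2 was 2.951 (medulloblastoma against normal brain, adjusted p = 7.66e-05), 2.099 (against glioma, adjusted p = 0.0153) and 0.851 (glioma against normal brain, adjusted p = 0.0244), the last a call that all arrays without the block did not give.

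Estimates that changed sign were all short of the threshold. Ldha against normal brain was -0.224 (medulloblastoma) and -0.417 (glioma) within YZ2, and between tumours 0.035 within YZ and 0.193 within YZ2. Pfkl in glioma was 0.007 with tissue as the only term and 0.071 within YZ. Between tumours, Pfkp was 0.220 with the median of probe sets, Aldoa 0.032 within YZ and Ldhb 0.007 within YZ2. Without medulloblastoma C6, Hk2 was 0.027 (Rictor -/- against untargeted) and Slc2a3 -0.036 (against +/-). Leaving out 1 array at a time, some estimates crossed 0: Pfkl in glioma (-0.149 to 0.019), and for Rictor -/- against untargeted medulloblastoma Hk1 (-0.017 to 0.565), Hk2 (-0.856 to 0.106) and Slc2a3 (-0.008 to 0.381), against +/- medulloblastoma Hk1 (-0.252 to 0.253) and Slc2a3 (-0.165 to 0.232), and in normal brain Hk1 (-0.027 to 0.036). The Pfkp to Pfkm balance moved to 1.65 (medulloblastoma) and 0.26 (glioma, from -0.68) with the median of probe sets. The cause was not tested.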
